A study of Mus musculus with 8 samples.

Results

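Genes of the p53 and Gadd45 damage response were followed in retinas of C57BL/6J mice exposed to 75% oxygen. The list held 10 genes, and the probe sets were chosen by the gene symbol annotated to them. Of the 10 genes, 8 were measured, by 16 of the 45037 probe sets tested: 3 each for *Mdm2*, *Ccng1* and *Gadd45b*, 2 each for *Cdkn1a* and *Trp53inp1*, and 1 each for *Bbc3*, *Gadd45a* and *Gadd45g*. *Trp53* and *Bax* were not analysed here. Retinal RNA was hybridised to 8 arrays, 2 for each of 4 groups. The control group (day 0) was kept in normal oxygen, and the other groups spent 3, 7 or 14 days in 75% oxygen. All mice were wild-type adults of 80 to 120 days, raised and kept in dim cyclic light. The RNA of each time came from pooled retinas of several animals of both sexes, and no source used here tells if a group's 2 arrays were 1 pool or separate ones. The p-values therefore measure how far arrays differ, which may be technical.

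p53 is a transcription factor that is held at a low level in unstressed cells and is stabilised when DNA is damaged. Its target genes arrest the cell cycle (*Cdkn1a*), start apoptosis (*Bbc3*, *Bax*) or feed back on p53 itself (*Mdm2*, *Ccng1*, *Trp53inp1*). The GADD45 proteins are small acidic stress sensors that bind cell cycle proteins and a kinase upstream of p38 and JNK. *Gadd45a* is a classical p53 target, whereas *Gadd45b* responds mainly to NFκB and cytokine signals and *Gadd45g* to cytokines.

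The deposited values were log2 expression with the median of each probe set over the 8 arrays set to 0. They compare arrays within a probe set and hold no level, so the genes could not be ranked against each other by expression and the retinal markers could not be checked by level. A difference is given as the mean of a day minus the mean of day 0 on the log2 scale, with its standard error (SE) from limma and an adjusted p over all probe sets (n = 2 arrays in each group). In whole retina, fewer cells of a type and less RNA per cell cannot be told apart.

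A pair of arrays, the second replicates of day 3 and day 14, stood apart and is called the outlying pair below. The median of 14 gliosis genes (among them *Gfap* and *Timp1*) was 1.10 and 0.98 there, against -0.26 to 0.17 on the other 6 arrays, and 12 of the 14 genes lay above all the others on both. The median of 17 genes of microglia and macrophages was 1.15 and 1.13, against -0.24 to 0.23, with 15 of 17 above. The 3' minus 5' difference of *Gapdh*, a usual gauge of RNA integrity, was 1.19 and 1.43 on these arrays and -0.32 to 0.12 elsewhere. Genes of rods had medians of -0.28 and -0.36 there and -0.33 on day 3 replicate 1, against 0.02 to 0.10 on the remaining 5 arrays. Genes of Müller glia had medians of -0.41 on both arrays of the pair, -0.31 and -0.03 on their partners, and 0.03 to 0.25 at day 0 and day 7. Lens genes ranged from -1.67 to 3.49 over the 8 arrays, with both day 7 arrays (1.91 and 3.49) above the other 6. The 2 control arrays lay far apart, at -1.66 and 1.77, the latter close to the lower day 7 array. The part of these features in the values of the damage response genes was not tested.

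Over all probe sets the outlying pair correlated with each other (Pearson's r = 0.74). Arrays of the same label hardly correlated on any day (0.04 for day 0, -0.13 for day 3, 0.02 for day 7 and 0.18 for day 14). These r were taken on the centred values. They compare departures from the median of each probe set, not whole expression profiles. The study's quality measures go against the labels of the outlying pair. There a raised *Gapdh* end ratio belongs to both arrays of the longest exposure and to neither array of the shortest. Whether an array carries the wrong label cannot be settled from the values, and the groups were kept as labelled. Every value for day 3 or day 14 is thus a value for the day on the label, and means of these days, with their differences from control, hold only if the labels do. Values without the outlying pair are given beside each gene. They rest on 1 array for day 3 and 1 for day 14, so they are given as sizes only, with no error or p.

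**Figure D1:**
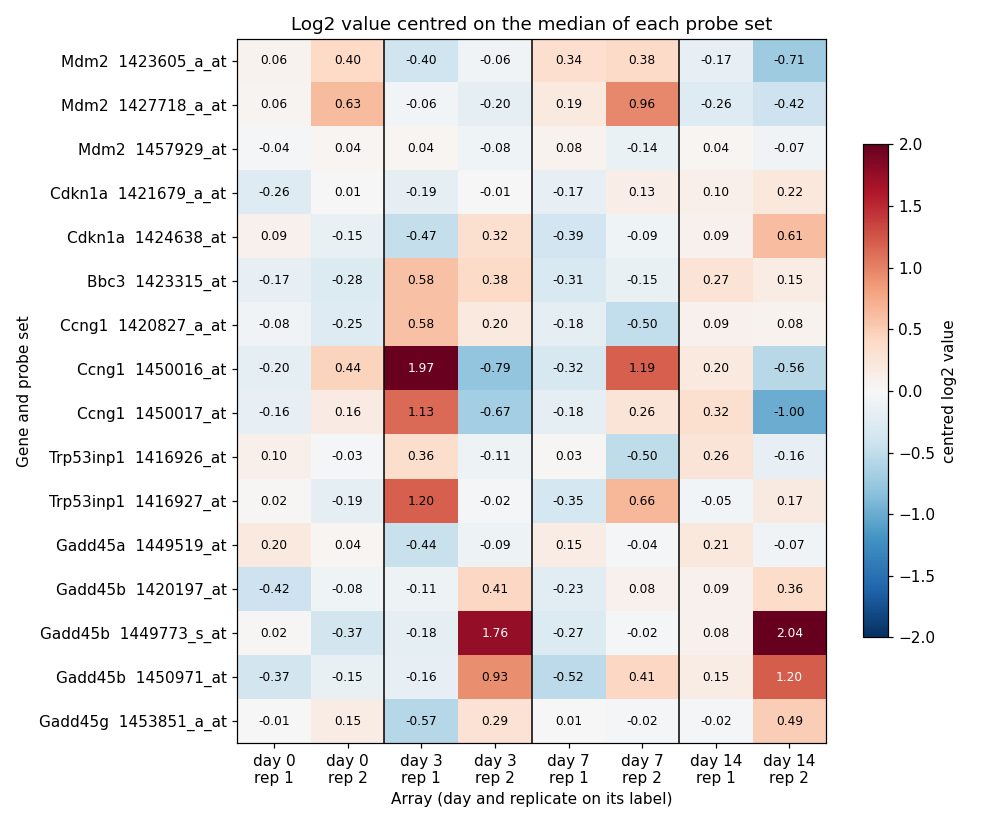
Centred log2 value of the 16 probe sets (rows) on the 8 arrays (columns, by the day and replicate on the label), with the value written in each cell. *Gadd45b* 1449773_s_at reached 1.76 and 2.04 on the outlying pair. *Bbc3* lay at 0.15 to 0.58 on the 4 arrays of day 3 and day 14, and at -0.31 to -0.15 on the other 4.

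The sequences upstream of the start sites are shown for the genes on which the results turn, to set the p53 targets beside *Gadd45b*. RefSeq windows (GRCm38.p6) were found for 7 of the 8 measured genes (10 windows, since *Bbc3* has 3 and *Cdkn1a* 2), and the 250 bases before the start were searched on both strands. p53 binds a pair of 10-base motifs, called decamers here. A p53 decamer was found upstream of *Mdm2*, *Cdkn1a*, *Ccng1* and *Gadd45a* (4 of 10 windows, against 7.12% of 32817 windows of all genes), in none of the windows of *Bbc3*, *Gadd45b* and *Gadd45g*. Only full matches to the motif were counted and marked. The 2 such decamers of *Cdkn1a* lay 12 bases apart, an arrangement (up to 13 bases between them) found in 0.064% of all windows. The 10 bases directly after the second of them match the motif at all but their first base, and were neither counted nor marked. The NFκB motif was found in 1 window, that of *Bbc3* (3.9% of all windows). TATAAA was found upstream of *Gadd45b* and *Gadd45g* (12.4% of all windows). CCAAT was found in 6 of 10 windows (33.8% of all windows), for 6 of the 7 genes, all but *Cdkn1a*. A match describes these letters and is not a measured site, and p53 is known to act on several of these genes from elements outside such windows. Each sequence is given 5' to 3' on the strand of the gene. Capitals mark the p53 decamers in *Mdm2*, *Cdkn1a*, *Ccng1* and *Gadd45a*, the NFκB motif in *Bbc3*, and TATAAA and CCAAT in *Gadd45b*.
*Mdm2*, chr10:117710759-117711008, minus strand: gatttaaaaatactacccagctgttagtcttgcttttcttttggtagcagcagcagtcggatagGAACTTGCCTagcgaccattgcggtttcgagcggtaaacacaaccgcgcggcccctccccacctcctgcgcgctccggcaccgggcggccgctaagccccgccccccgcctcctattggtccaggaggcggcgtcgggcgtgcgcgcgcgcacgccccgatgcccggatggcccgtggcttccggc
*Cdkn1a*, chr17:29090729-29090978, plus strand: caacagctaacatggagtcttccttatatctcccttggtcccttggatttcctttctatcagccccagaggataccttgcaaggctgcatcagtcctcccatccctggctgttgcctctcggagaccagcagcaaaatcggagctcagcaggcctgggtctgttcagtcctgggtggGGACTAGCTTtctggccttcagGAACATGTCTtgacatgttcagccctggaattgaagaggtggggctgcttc
*Ccng1*, chr11:40755287-40755536, minus strand: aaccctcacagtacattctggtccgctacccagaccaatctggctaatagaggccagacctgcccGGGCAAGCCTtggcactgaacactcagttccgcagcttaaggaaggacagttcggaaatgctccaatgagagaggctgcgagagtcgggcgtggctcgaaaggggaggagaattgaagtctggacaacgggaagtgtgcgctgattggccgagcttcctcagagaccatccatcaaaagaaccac
*Gadd45a*, chr6:67037408-67037657, minus strand: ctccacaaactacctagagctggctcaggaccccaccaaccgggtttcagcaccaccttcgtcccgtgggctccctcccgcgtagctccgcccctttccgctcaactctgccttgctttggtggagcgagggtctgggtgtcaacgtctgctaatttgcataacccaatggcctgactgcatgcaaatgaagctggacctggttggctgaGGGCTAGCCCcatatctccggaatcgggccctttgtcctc
*Bbc3*, chr7:16309333-16309582, plus strand: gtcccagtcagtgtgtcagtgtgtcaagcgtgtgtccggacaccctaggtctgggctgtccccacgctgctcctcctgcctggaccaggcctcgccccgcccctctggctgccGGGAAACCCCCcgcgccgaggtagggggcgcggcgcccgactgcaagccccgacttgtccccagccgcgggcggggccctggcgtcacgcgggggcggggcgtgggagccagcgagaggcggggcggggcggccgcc
*Gadd45b*, chr10:80929841-80930090, plus strand: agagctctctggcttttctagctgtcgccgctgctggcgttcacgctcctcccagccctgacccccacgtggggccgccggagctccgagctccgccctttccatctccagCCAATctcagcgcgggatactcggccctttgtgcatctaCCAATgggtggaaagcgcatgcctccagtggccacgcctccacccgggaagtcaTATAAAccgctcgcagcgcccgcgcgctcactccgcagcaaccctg

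No probe set of these genes passed an adjusted p of 0.05 in limma at any time. The count was 0 of 16 at day 3, day 7 and day 14 against control, between any 2 exposure times, and over the 4 days together, where 0% of all probe sets were called in each of these 7 comparisons. At an unadjusted p under 0.05, 2 of 16 differed at day 3 (10.3% of all probe sets), 0 at day 7 (0.864%), 2 at day 14 (8.27%) and 3 over the 4 days (8.09%). A difference of 2-fold or more was reached by 0 of 16 at day 3 (1.53% of all), 0 at day 7 (0.293%) and 1 at day 14 (2.11%), the probe set 1449773_s_at of *Gadd45b*. The median difference over the 16 probe sets was 0.16 at day 3, 0.04 at day 7 and 0.16 at day 14, with 10, 9 and 10 of them above 0, and over all probe sets it was 0.04, -0.003 and 0.05. At day 7 no probe set of the list had both arrays outside the range of the control arrays, in either direction (12.3% of all probe sets lay above and 12.3% below).

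*Bbc3*, which encodes the killer protein PUMA that triggers mitochondrial apoptosis, was the most regular of the 8 genes. The day 3 arrays read 0.58 and 0.38, and those of day 14 read 0.27 and 0.15. The control arrays read -0.17 and -0.28, and those of day 7 read -0.31 and -0.15. Thus all arrays of day 3 and day 14 lay above all arrays of day 0 and day 7, without overlap. This order was seen in 7.98% of all probe sets and was picked out after the values were seen. The difference from control was 0.70 ± 0.15 at day 3, a ratio of 1.63 (unadjusted p = 0.0021, adjusted p = 0.471 in limma), 0.00 ± 0.15 at day 7 and 0.43 ± 0.15 at day 14, a ratio of 1.35 (unadjusted p = 0.021, adjusted p = 0.526 in limma). It was smaller on average at day 14 than at day 3, by 0.27 ± 0.15, and that difference did not pass (adjusted p = 0.998 in limma). Of the 16 probe sets, *Bbc3* had the smallest p over the 4 days (unadjusted p = 0.0049, adjusted p = 0.526 in limma). Without the outlying pair its differences were 0.81 at day 3 and 0.50 at day 14.

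*Mdm2* encodes the ubiquitin ligase that marks p53 for degradation and is itself a p53 target, and 2 of its 3 probe sets showed the opposite order. For 1423605_a_at the control arrays read 0.06 and 0.40 and those of day 7 read 0.34 and 0.38, whereas day 3 gave -0.40 and -0.06 and day 14 gave -0.17 and -0.71. For 1427718_a_at the control arrays read 0.06 and 0.63 and those of day 7 read 0.19 and 0.96, whereas day 3 gave -0.06 and -0.20 and day 14 gave -0.26 and -0.42. On both probe sets every array of day 3 and day 14 lay below every array of day 0 and day 7 (6.34% of all probe sets). Against control the 2 probe sets differed by -0.46 ± 0.23 and -0.47 ± 0.29 for day 3 and by 0.13 ± 0.23 and 0.23 ± 0.29 for day 7. For day 14 they differed by -0.67 ± 0.23 and -0.68 ± 0.29, a ratio of 0.628 and 0.622 (adjusted p of 0.533 and 0.608 in limma). Between day 14 and day 7 the differences were -0.80 ± 0.23 and -0.92 ± 0.29 (adjusted p of 0.413 and 0.434 in limma). The third probe set, 1457929_at, was nearly flat, with all arrays between -0.14 and 0.08, and since the values hold no level it is not known whether it measured the transcript. Without the outlying pair, the differences of 1423605_a_at were -0.63 at day 3 and -0.40 at day 14, and those of 1427718_a_at were -0.40 and -0.61. Leaving out the second control array gave a day 3 difference of -0.19 for 1427718_a_at and -0.29 for 1423605_a_at, and leaving out the first gave -0.76 and -0.63. At day 14 the same choices gave -0.40 or -0.97 for 1427718_a_at and -0.50 or -0.84 for 1423605_a_at. The medians of the Müller glia genes lay in the same order as these *Mdm2* probe sets, with every array of day 3 and day 14 below every array of day 0 and day 7, and their part in the result was not tested.

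**Figure D2:**
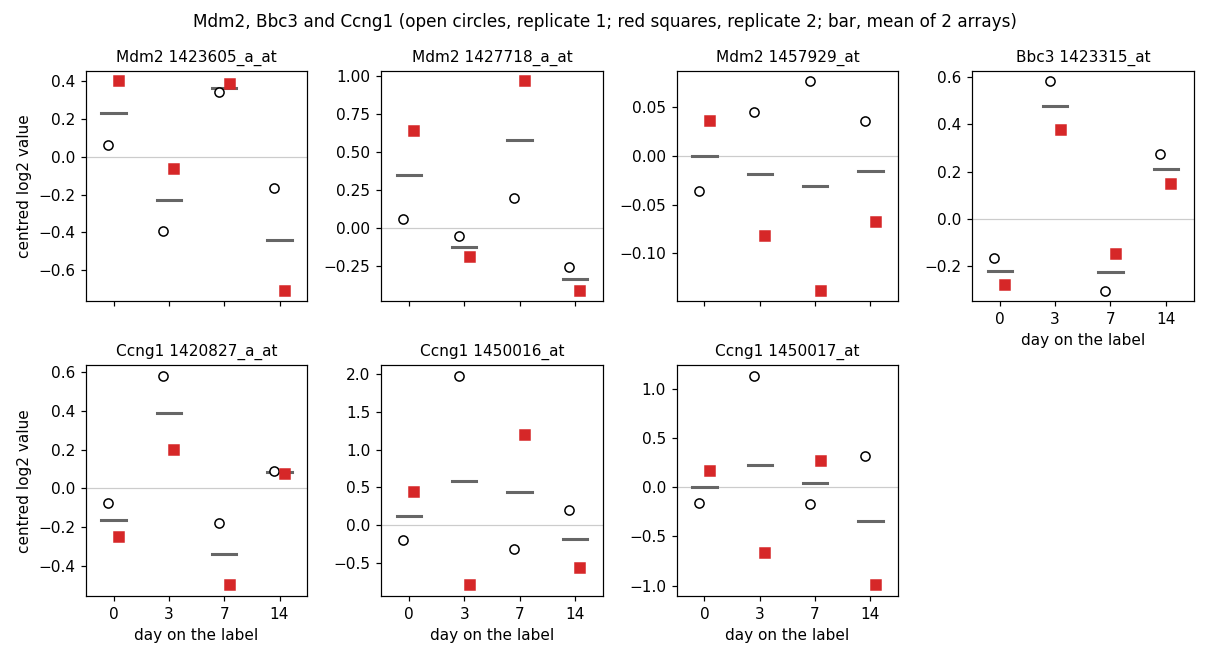
Centred log2 value of each probe set of *Mdm2*, *Bbc3* and *Ccng1* by the day on the label (1 point per array; open circles, replicate 1; red squares, replicate 2; bars, means of 2 arrays; each panel has its own scale). The day 3 and day 14 arrays lie below those of day 0 and day 7 for *Mdm2* 1423605_a_at and 1427718_a_at and above them for *Bbc3* and *Ccng1* 1420827_a_at, whereas *Ccng1* 1450016_at spans -0.79 to 1.97 on the 2 arrays of day 3.

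*Ccng1* encodes cyclin G1, a p53 target that recruits a phosphatase to MDM2, and its 3 probe sets did not give 1 picture. The probe set 1420827_a_at followed the order of *Bbc3*, reading 0.58 and 0.20 for day 3 and 0.09 and 0.08 for day 14, against -0.08 and -0.25 for controls and -0.18 and -0.50 for day 7. Its difference from control was 0.55 ± 0.19 at day 3 (unadjusted p = 0.022, adjusted p = 0.471 in limma), -0.18 ± 0.19 at day 7 and 0.25 ± 0.19 at day 14, and without the outlying pair it was 0.74 at day 3 and 0.25 at day 14. The other probe sets split the replicates instead. On the 2 day 3 arrays 1450016_at read 1.97 and -0.79, and 1450017_at read 1.13 and -0.67. Both had their lowest values of the 8 arrays on the outlying pair, the arrays with the large 3' minus 5' differences of *Gapdh*. Their differences from control had wide errors, 0.47 ± 0.91 and 0.23 ± 0.64 at day 3 and -0.31 ± 0.91 and -0.34 ± 0.64 at day 14. Leaving out the outlying pair gave 1.85 and 1.13 (day 3) and 0.07 and 0.32 (day 14). The mean of the 3 probe sets differed from control by 0.42 ± 0.51 at day 3 and -0.13 ± 0.51 at day 14. Over the 8 arrays, Pearson's r was 0.91 between 1450016_at and 1450017_at, and 0.16 and 0.23 between these and 1420827_a_at (a description over the same arrays).

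By their order alone, 4 of the 16 probe sets separated day 3 and day 14 from day 0 and day 7, a pattern picked out after the values were seen. *Bbc3* and *Ccng1* 1420827_a_at were higher (2 of 16, against 7.98% of all probe sets), and *Mdm2* 1423605_a_at and 1427718_a_at were lower (2 of 16, against 6.34%). Further quantile normalization or subtraction of the array medians left the same 4 probe sets with this order. Against control alone, both day 3 arrays lay above both control arrays for 2 of 16 probe sets (24.7% of all probe sets) and below for 3 (17.8%), which were those of *Mdm2* and that of *Gadd45a*. At day 14, 6 lay above (27.7%) and 2 below (18.3%).

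*Cdkn1a* encodes p21, the inhibitor of cyclin-dependent kinases through which p53 halts the cell cycle. On 1421679_a_at the controls read -0.26 and 0.01, day 3 read -0.19 and -0.01, day 7 read -0.17 and 0.13 and day 14 read 0.10 and 0.22. The arrays of day 14 lay above those of day 0 and day 3, by a small margin. On 1424638_at the controls read 0.09 and -0.15, day 3 read -0.47 and 0.32, day 7 read -0.39 and -0.09 and day 14 read 0.09 and 0.61. Here the 2 highest values were those of the outlying pair. The differences from control were 0.02 ± 0.17 and -0.05 ± 0.30 at day 3, and 0.28 ± 0.17 and 0.38 ± 0.30 at day 14 (adjusted p of 0.690 and 0.745 in limma). Leaving out the outlying pair gave -0.06 and -0.44 (day 3) and 0.22 and 0.12 (day 14).

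*Trp53inp1* encodes a nuclear and autophagy protein that p53 induces and that in turn aids p53. Both probe sets were highest on the first day 3 array, at 0.36 for 1416926_at and 1.20 for 1416927_at, whereas the second read -0.11 and -0.02. On the other 6 arrays they ranged from -0.50 to 0.26 and from -0.35 to 0.66. The array of day 7 replicate 2 was the lowest on the first probe set (-0.50) and the second highest on the other (0.66), and Pearson's r between the 2 over the 8 arrays was 0.07. The differences from control at day 3 were 0.09 ± 0.25 and 0.68 ± 0.46 (adjusted p of 0.923 and 0.618 in limma), and 0.32 and 1.29 without the outlying pair.

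*Gadd45b*, the stress gene of NFκB and cytokine signals, had the probe set with the largest SD of the list (0.95 over the 8 arrays), set by the outlying pair. For 1449773_s_at the outlying pair read 1.76 and 2.04, and the range of the other 6 arrays was -0.37 to 0.08. The partner arrays of the same days, at -0.18 for day 3 and 0.08 for day 14, lay near the controls (0.02 and -0.37). The probe set 1450971_at repeated this at a smaller scale, with 0.93 and 1.20 on the pair, -0.16 and 0.15 on the partner arrays, -0.37 and -0.15 for controls and -0.52 and 0.41 for day 7. 1420197_at stood at 0.41 and 0.36 there and between -0.42 and 0.09 elsewhere. The 3 probe sets moved together over the arrays (Pearson's r of 0.81 to 0.94, a description over the same 8 arrays). The suffix s in the name of 1449773_s_at means that its probes can match more than 1 transcript.

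At day 14 all 3 probe sets of *Gadd45b* had both arrays above both control arrays, an order seen in 27.7% of all probe sets. The 3 measure the same gene and moved together, so they do not count as separate findings. The differences were 1.24 ± 0.77, 0.94 ± 0.50 and 0.48 ± 0.23 for 1449773_s_at, 1450971_at and 1420197_at (adjusted p of 0.695, 0.659 and 0.639 in limma). At day 3 the differences were 0.97 ± 0.77, 0.64 ± 0.50 and 0.40 ± 0.23, and the arrays overlapped those of control. At day 7 they were 0.03 ± 0.77, 0.20 ± 0.50 and 0.18 ± 0.23. The size of the first 2 rested on single arrays. For 1449773_s_at the day 14 difference was 0.26 when the outlying array of that day was left out and 2.22 when its partner was. At day 3 the same choice gave 0.00 or 1.94. For 1450971_at it gave 0.41 or 1.46 at day 14 and 0.10 or 1.19 at day 3. For 1420197_at the differences without the outlying pair were 0.14 at day 3 and 0.34 at day 14.

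**Figure D3:**
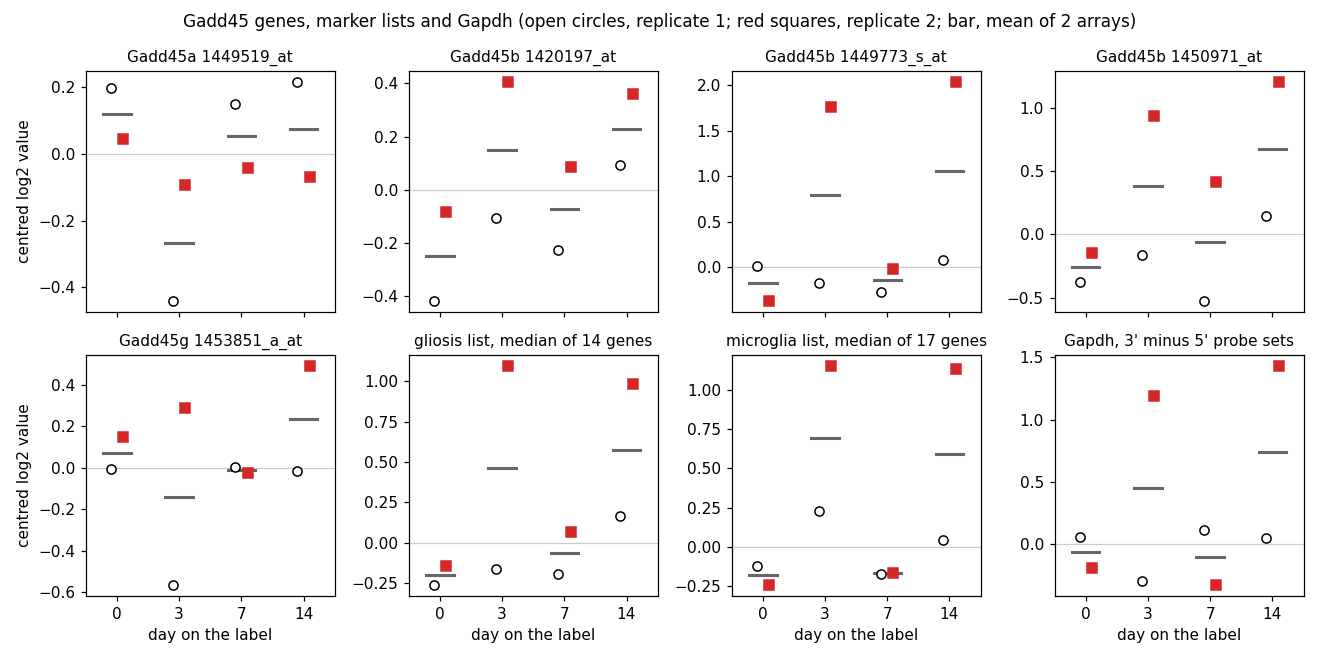
Centred log2 value of the probe sets of *Gadd45a*, *Gadd45b* and *Gadd45g*, the medians of the gliosis and microglia lists and the 3' minus 5' difference of *Gapdh*, by the day on the label (1 point per array; open circles, replicate 1; red squares, replicate 2; bars, means of 2 arrays; each panel has its own scale). The outlying pair gives the highest points for *Gadd45b*, *Gadd45g*, both lists and *Gapdh*, but not for *Gadd45a*.

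The relatives of *Gadd45b* varied less. *Gadd45g* read 0.29 and 0.49 on the outlying pair, its 2 highest values, -0.57 on the other day 3 array, and -0.02 to 0.15 on the remaining 5. It differed from control by -0.21 ± 0.30 (day 3), -0.08 ± 0.30 (day 7) and 0.17 ± 0.30 (day 14), and without the outlying pair by -0.64 at day 3 and -0.09 at day 14. *Gadd45a*, the p53 target of the family, read -0.44 and -0.09 for day 3, below the controls (0.20 and 0.04). The arrays of day 7 (0.15 and -0.04) and day 14 (0.21 and -0.07) overlapped them. Its difference from control was -0.39 ± 0.18 at day 3 (adjusted p = 0.512 in limma), -0.07 ± 0.18 at day 7 and -0.05 ± 0.18 at day 14. Without the outlying pair it was -0.56 at day 3 and 0.10 at day 14. In all, 5 of the 16 probe sets had their 2 highest values on the outlying pair (16.0% of all probe sets), namely the 3 of *Gadd45b*, that of *Gadd45g* and 1424638_at of *Cdkn1a*. The 2 lowest values fell there for 2 of 16, both of *Ccng1* (9.59% of all probe sets).

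The probe sets of other named genes most like *Gadd45b* 1449773_s_at over the 8 arrays were those of *Zbtb24*, a zinc finger protein (Pearson's r = 0.996), *Laptm5*, a lysosomal protein of blood cells and microglia (0.995), *Klhl6*, a B cell protein (0.989), *Egr2*, an immediate early transcription factor (0.986), and *Timp1*, an inhibitor of matrix proteases (0.985). *Laptm5* read 2.94 and 3.20 on the outlying pair, against -0.49 to 0.23 elsewhere. *Zbtb24* read 0.40 and 0.47, against -0.09 to 0.01. These are descriptions of a shape that 2 arrays set, and *Laptm5* and *Timp1* are themselves in the microglia and gliosis lists.

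**Figure D4:**
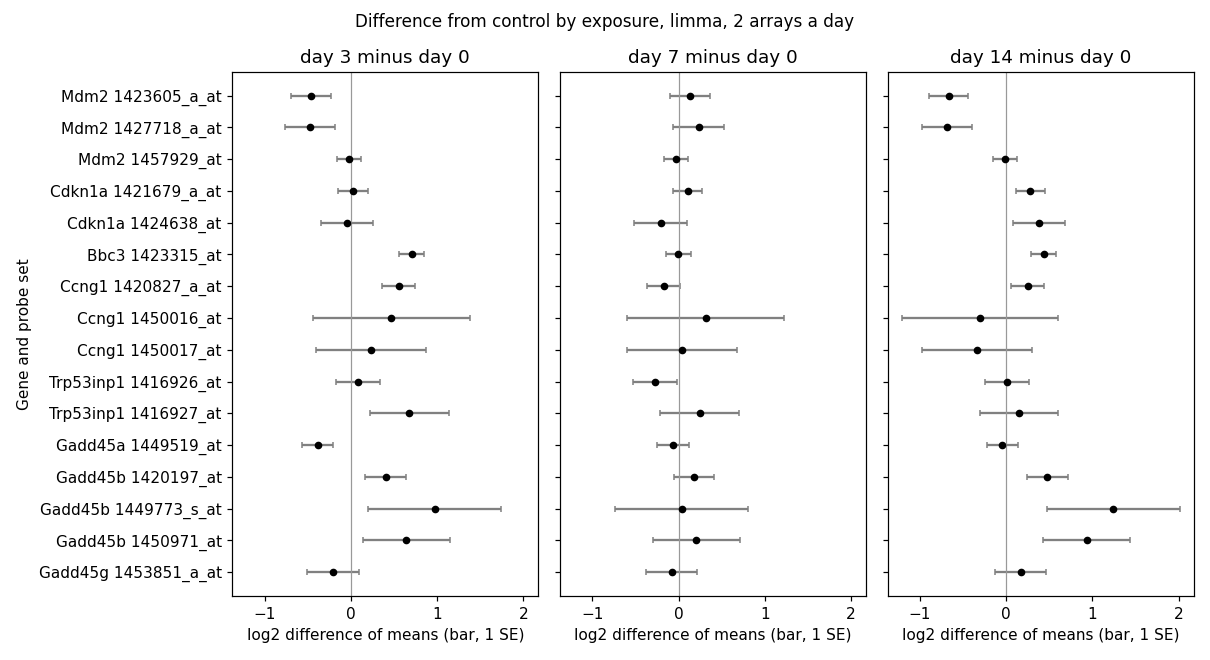
Difference of each day from day 0 on the log2 scale (points) with 1 SE from limma (bars) for the 16 probe sets, in panels for day 3, day 7 and day 14 (2 arrays a day). The widest bars are those of *Ccng1* 1450016_at (SE 0.91) and *Gadd45b* 1449773_s_at (SE 0.77), and at day 7 all points lie between -0.28 and 0.31.

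Other genes of the pathway, in lists set beside the 10 genes, gave 0 probe sets past an adjusted p of 0.05 in limma at any time. Among 21 regulators of p53 (61 probe sets), 2 were higher and 10 lower at an unadjusted p under 0.05 for day 3 (10.3% of all probe sets in both directions), 0 and 0 for day 7 (0.864%), and 1 and 7 for day 14 (8.27%). The median differences were -0.12, 0.02 and -0.11. The smallest p were those of *Trp53bp1*, which binds chromatin at DNA breaks, *Atr*, the kinase of stalled replication, and *Ep300*, which acetylates p53. At day 14 their differences from control were -1.06, -1.34 and -0.47 (adjusted p of 0.405, 0.392 and 0.524 in limma). For *Trp53bp1* the probe set read 0.65 and 0.85 for controls, 0.87 and 0.26 for day 7, -0.35 and -0.30 for day 3 and -0.36 and -0.26 for day 14. Every array of day 3 and day 14 lay below every array of day 0 and day 7, an order seen in 6.34% of all probe sets. As this probe set was picked for its small p over the days, the order is a description only. Its probe set has the suffix x, so that its probes can match other transcripts too.

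Among 12 p53 targets of cell death (22 probe sets) the median difference was 0.15, -0.12 and 0.16 for day 3, day 7 and day 14. At an unadjusted p under 0.05, 5 were higher and 1 lower at day 3 (10.3% of all probe sets), and 1 and 0 at day 14 (8.27%). *Siva1*, a death receptor adaptor, read 0.67 and 0.62 for day 3, 0.06 and 0.76 for day 14, -0.06 and -0.45 for controls and -0.21 and -0.69 for day 7 (difference 0.90 at day 3, adjusted p = 0.471 in limma). *Perp*, a desmosomal p53 target of epithelia, had -1.19 at day 3 (adjusted p = 0.471 in limma), beside a median of -2.43 over 14 probe sets of corneal and other epithelium genes, and the part of these genes' cells in the value of *Perp* was not tested. *Eda2r*, a death receptor of the TNF family, had 0.49. Among 11 targets of arrest and feedback (18 probe sets), 2 were higher and 0 lower at an unadjusted p under 0.05 at day 3 (10.3% of all probe sets), and 2 and 1 at day 14 (8.27%). *Phlda3*, an AKT inhibitor, read 0.51 and 0.66 for day 3 and 0.08 and 0.82 for day 14, against -0.17 and -0.08 for controls and -0.19 and -0.21 for day 7. *Rprm*, a G2 arrest gene, differed by 0.57 at day 3 and 0.66 at day 14, and *Btg2*, an antiproliferative gene, by -0.44 and -0.42. The median differences of the 18 probe sets were -0.08 at day 3 and -0.03 at day 14.

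Among 8 targets of repair and metabolism (16 probe sets), 1 was higher and 2 lower at an unadjusted p under 0.05 at day 3 (10.3% of all probe sets). At day 14 it was again 1 and 2 (8.27%), and the median differences were -0.07 and 0.02. *Polk*, a translesion polymerase, differed from control by -0.48 at day 3 and -0.89 at day 14. *Ddb2*, a sensor of ultraviolet damage, differed by -0.62 and -0.40, and *Sco2*, an assembly factor of cytochrome oxidase, by 0.92 and 0.57. Among 11 partners of the GADD45 proteins (31 probe sets), 0 were higher and 2 lower at an unadjusted p under 0.05 at day 3 (10.3% of all probe sets), and 0 and 1 at day 14 (8.27%). *Map3k4*, the kinase that GADD45 proteins bind and activate, read -0.81 and -0.36 for day 3 and -0.06 and -0.42 for day 14, against 0.06 and 0.12 for controls (difference -0.68 at day 3, adjusted p = 0.471 in limma). On the probe set picked for its p, *Mapk8*, which encodes the kinase JNK1, differed by -1.01 at day 3 and -1.40 at day 14. *Mapk10*, which encodes JNK3, differed by 0.19 and 0.31 on the probe set picked in the same way. None of these genes passed at any time.

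Among 24 immediate early and stress transcription genes (44 probe sets) the median difference was 0.08, -0.12 and 0.14 for day 3, day 7 and day 14. At an unadjusted p under 0.05, 5 were higher and 1 lower at day 3 (10.3% of all probe sets), and 5 and 0 at day 14 (8.27%). *Junb*, a subunit of AP-1, read 1.17 and 1.21 on the outlying pair, 0.19 and 0.44 on the partner arrays, and -0.68 to -0.19 on the 4 arrays of day 0 and day 7. All 4 arrays of day 3 and day 14 thus lay above these (7.98% of all probe sets), in a probe set picked for its small p over the days. The difference at day 14 was 1.14 (adjusted p = 0.522 in limma). *Ier2*, an immediate early gene, differed by 0.32, -0.45 and 0.30 at day 3, day 7 and day 14, and *Trib3*, a pseudokinase of the stress response, by 0.42, -0.24 and 0.59.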

How the data were processed

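Retinal RNA was measured on 8 Affymetrix expression arrays, grouped by the day and replicate in the titles. The deposited values are on the log2 scale. Per the labels, the authors derived them with RMA, which corrects background, equalises the distributions of arrays and summarises probes (no version given), whereas the study's methods name MAS5. For every probe set the median of the 8 arrays is 0, and no source used here describes that centring. Of 45101 probe sets, 64 controls were set aside and 45037 were tested with no filter, since the values hold no level. Gene names came from a platform annotation table, in which 34945 probe sets name 1 gene, 932 several and 9160 none.

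Group means of the 4 days were estimated by lmFit and eBayes (limma 3.58.1, R 4.3.3; 4 residual and 2.71 prior degrees of freedom), with Benjamini-Hochberg adjustment over all probe sets at 0.05. The number of arrays limits the precision. The fit was tested on simulated data. Motifs, medians and figures used Python 3.11.15 (pandas 2.3.3, matplotlib 3.10.9). The named genes were every probe set of the 10 genes and the 5 genes most like the probe set with the largest SD. To these were added up to 3 genes of each pathway list, by the smallest p of any of their probe sets over the 4 days. The members and lists were chosen with earlier results of these data known. Alternatives were a further quantile normalization, array medians subtracted, a replicate block, robust eBayes and the compared groups alone. Others were arrays left out, gene means, and a plain one-way analysis of variance over all probe sets. The study's own analysis of variance took genes past its 2-fold criterion and used a cross gene error model, and it was not repeated. The quantitative PCR and tissue sections were not analysed here.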

Additional observations from a re-analysis of the deposited data

How the results depend on the processing

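The count of probe sets of the damage response genes past adjusted p stayed at 0 of 16 (0 of 8 genes as gene means) at each time, and over the 4 days, under every alternative run, including 0 to 0 without any single array. The lowest adjusted p in limma among the 16 over these alternatives was 0.105 (day 3, without day 3 replicate 2). At an unadjusted p under 0.05 the count was 2 at day 3 (10.3% of all probe sets) and 2 at day 14 (8.27%) in limma with all arrays. It was 1 and 1 by one-way analysis of variance, 3 and 3 after a further quantile normalization, and 5 at day 14 with the compared groups alone. The unadjusted count moved further when arrays were left out, most of all at day 3 without the outlying pair. Those counts are not given, since such fits leave 1 array in a group. The share of all probe sets was not taken under these alternatives or the replicate block, so their unadjusted counts cannot be weighed against it. Titles give replicate numbers, but with the replicate block the count past adjusted p was 0 at each time, and 4 and 4 passed unadjusted at day 3 and day 14. The deviations of same-numbered arrays correlated between -0.40 and 0.55 over pairs of days, so the numbers were not taken to pair the arrays. Of the 48 differences from control, 1 changed sign after a further quantile normalization and 2 after subtraction of array medians, none of them over 1 SE in size. Without 1 array at a time, 1 to 10 of the 48 changed sign, and of those over 1 SE it was that of *Gadd45b* 1449773_s_at at day 3. After a further quantile normalization 4 of 16 probe sets had both day 3 arrays above both control arrays (9938 of all 45037). Before it the count was 2 of 16 (11128 of all). *Gadd45b* 1449773_s_at differed by 1.09 at day 3 and 1.28 at day 14 after that normalization. No value of signal over background was available to weigh dim probe sets, such as the third of *Mdm2*.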
